A study of Mus musculus with 64 samples.

Results

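The 31 genes described here are known for their expression in astrocytes, the glial cells that take up transmitter and potassium around synapses and line the blood vessels of the brain, and they include Fabp7 and Etnppl. They were chosen by gene symbol, with earlier results of these data known. Their counts beside the shares of all genes are therefore a description only. All 31 were found among the 55414 gene IDs of the acute table and the 55573 IDs of the continuous table, and all 31 passed the filter on low counts in both. The study compared hippocampal RNA of 44 mice in 2 experiments, to ask whether loss of UBE3A, a ubiquitin ligase, alters the response to corticosterone (CORT), the main glucocorticoid hormone of mice. Wild-type (WT) and Angelman syndrome (AS) mice were male F1 offspring, 10 to 18 weeks old, of C57BL/6J fathers and 129sv mothers that carried the Ube3atm1Alb allele (Ube3a m+/p-). AS mice (Ube3a m-/p+) had a maternal allele without exon 5 and an intact paternal allele. The paternal allele is silent in neurons, so this model removes UBE3A protein from neurons, while glia keep paternal expression. In the acute experiment, 6 mice of each genotype received vehicle (ethanol in PBS) and 6 received 3 mg/kg CORT by subcutaneous injection, and the left hippocampus was taken 3 h later. All of these mice had been bled on an earlier day. In the continuous experiment, 5 mice of each genotype received a vehicle pellet of cholesterol and 5 a pellet with 20 mg CORT for 5 days, and all had surgery. Each hippocampal library is counted here as a separate mouse. The study describes the WT mice as littermates of the AS mice, and litters are not given in the sources used here.

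Astrocytes clear glutamate through the transporters encoded by Slc1a2 and Slc1a3 and convert it to glutamine with glutamine synthetase (Glul). They are joined to each other by connexins (Gja1, Gjb6), and their endfeet on blood vessels carry the water channel AQP4. Astrocytes express the glucocorticoid receptor (GR), a transcription factor that binds palindromic DNA elements once it has bound CORT. Fabp7, a carrier of long-chain fatty acids, is also expressed by radial glia-like stem cells of the dentate gyrus. In whole hippocampus, fewer astrocytes and less RNA per astrocyte cannot be told apart.

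Promoter windows, each running from upstream of a transcript start to shortly after it, were read from RefSeq on GRCm38.p6 and found for 26 of the 31 genes, in 33 windows. Those of 4 genes that the results below turn on are shown, of which Etnppl and Gjb6 were higher and Fabp7 and Gfap lower with the CORT pellet. Capitals mark the letters TGGGAA on either strand. The windows were chr3:130617198-130617497 on the plus strand for Etnppl, chr14:57133562-57133861 on the minus strand for Gjb6, chr10:57784673-57784972 on the plus strand for Fabp7 and chr11:102897151-102897450 on the minus strand for Gfap. Etnppl has a second window that overlaps the one shown. In GENCODE M21 on GRCm38, the gene bodies span chr3:130617448-130637521 for Etnppl (ENSMUSG00000019232), chr14:57123303-57133611 for Gjb6 (ENSMUSG00000040055), chr10:57784881-57788450 for Fabp7 (ENSMUSG00000019874) and chr11:102887336-102900912 for Gfap (ENSMUSG00000020932), and the Gfap window shown lies inside its gene body, at one of its annotated starts.
Etnppl: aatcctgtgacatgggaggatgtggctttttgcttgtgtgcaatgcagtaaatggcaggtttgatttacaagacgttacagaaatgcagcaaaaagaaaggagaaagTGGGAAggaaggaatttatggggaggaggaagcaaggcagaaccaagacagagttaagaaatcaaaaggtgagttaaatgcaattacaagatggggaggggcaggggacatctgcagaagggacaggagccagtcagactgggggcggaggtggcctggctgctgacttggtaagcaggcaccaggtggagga
Gjb6: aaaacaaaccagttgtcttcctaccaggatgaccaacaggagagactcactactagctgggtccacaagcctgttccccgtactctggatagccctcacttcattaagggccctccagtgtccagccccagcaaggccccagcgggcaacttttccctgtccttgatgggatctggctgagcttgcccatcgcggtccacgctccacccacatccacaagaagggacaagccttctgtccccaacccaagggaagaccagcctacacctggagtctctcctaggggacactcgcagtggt
Fabp7: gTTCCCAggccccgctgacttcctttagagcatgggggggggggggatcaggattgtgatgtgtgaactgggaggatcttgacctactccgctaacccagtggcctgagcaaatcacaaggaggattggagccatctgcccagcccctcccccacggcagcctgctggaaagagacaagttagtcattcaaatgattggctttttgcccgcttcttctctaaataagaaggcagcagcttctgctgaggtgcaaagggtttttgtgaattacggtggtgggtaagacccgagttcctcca
Gfap: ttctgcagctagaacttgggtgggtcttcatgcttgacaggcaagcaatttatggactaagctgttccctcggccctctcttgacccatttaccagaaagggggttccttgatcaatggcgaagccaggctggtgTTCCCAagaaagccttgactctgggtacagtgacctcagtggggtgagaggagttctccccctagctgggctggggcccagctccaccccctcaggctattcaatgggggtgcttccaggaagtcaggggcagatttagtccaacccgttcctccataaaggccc

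The GR palindrome (AGAACA and TGTTCT with 3 bases between), searched on both strands, was in 0 of the 33 windows of these genes and in 0.00913% of the 32851 windows of all genes. Its half-site AGAACA was in 4 of the 33 windows (12.1%), those of Apoe, Cxcl14, Hepacam and Slc1a3, and in 19% of all windows. None of the 4 windows shown holds either one. Because of that, 3 further motifs were added afterwards, and they are a description only. The nuclear factor I palindrome (TTGGC and GCCAA with 5 bases between) was in 0 of the 33 windows and in 0.0365% of all. TGGGAA was in 13 of the 33 windows (39.4%) and in 25.6% of all, and began at base -143 in Etnppl, -249 in Fabp7 and -115 in Gfap, counted from the transcript start. TATAAA was in 4 of the 33 windows (12.1%) and in 13.6% of all. Nothing follows from these letters about binding, and GR is known to bind mostly far from transcript starts.

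Between 19049461 and 21052967 reads per library were counted on genes in the acute experiment and between 19112929 and 21783009 in the continuous one. Levels are given as CPM, the counts of a gene per 1000000 counts on genes after TMM normalization, and 3 counts correspond to 0.138 to 0.158 CPM, a floor that covers counting error only. The 1364 counts of the 31 genes ran from 47, for Etnppl, to 56306, for Sparcl1, so none was near that floor. The GR targets Fkbp5 and Tsc22d3 were higher with CORT in both genotypes of both experiments, with log2 fold changes of 0.53 to 1.10. Of 2 other GR targets, Sgk1 was higher with the pellet (1.07 and 1.59) but did not pass after the injection (adjusted p = 0.114 in WT and 0.0653 in AS mice), and Per1 passed in none of the 4 comparisons (log2 -0.08 to 0.31). Ube3a itself ranged over 52.5 to 84.7 CPM in the acute and 69.2 to 98.0 CPM in the continuous experiment, and counts per gene do not check the deleted exon.

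Some libraries stood apart. In the acute experiment, libraries H17 to H24 each had 2640 to 2850 reads set aside for low alignment quality, against 1877 to 2237 in H1 to H16. These 8 libraries are 2 of the 6 AS vehicle mice and all 6 AS CORT mice, and none is from a WT mouse. Those of the 31 genes called for CORT in AS mice of this experiment are therefore given below with and without a term for the division. Other values of AS mice are without it unless stated, and the fit of both experiments had no such term. The labels do not say what the division is. The WT CORT mouse H8 of this experiment stood apart in the study's principal components and was kept. Without it, 4 of the 31 genes passed for CORT in WT mice, where 1.62% of all genes passed, with Aldh1l1 lost (adjusted p = 0.0527) and Etnppl at 0.76 (adjusted p = 0.00146). In the continuous experiment, the study left out H9, an AS vehicle mouse, and H13, a WT vehicle mouse, as technical outliers. Scaled together with the other 18, H9 held 20 of the 31 genes above and 4 below all 18 other libraries, and H13 held 11 above and 5 below. The summed level of 10 oligodendrocyte markers was 20300 CPM in H9 and 16170 CPM in H13, against 2247 to 6928 CPM in the others, and that of 10 neuronal markers was 6932 and 6104 CPM against 12530 to 14550 CPM. Thalamus markers summed to 1665 CPM in H9, against 50.7 to 232 CPM in the others, and choroid plexus markers to 13090 CPM in H13, against 38.02 to 2905 CPM. Their part in the values of the astrocyte genes was not tested. The continuous results are those of 18 mice, with 4 in each vehicle group. For the 31 genes, values with all 20 stand beside them where a call changes. The other gene lists were tested in the 18 mice only. Of these lists, summed radial glia-like markers were at 765 CPM in H9 and 807 CPM in H13, against 487 to 641 CPM in the others.

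Levels of different genes were compared as CPM per kilobase of exon. In WT vehicle mice of the acute experiment, Apoe, a lipid carrier, was highest at 655 ± 61.2 CPM per kb (SD, n = 6), followed by Sparcl1, a secreted matrix protein, at 503 ± 53.2, Glul at 347 ± 17.9, Clu, a secreted chaperone, at 279 ± 24.9, and Aldoc, the aldolase of brain glycolysis, at 211 ± 15.4. Slc1a2 (160 ± 9.88) and Atp1b2 (162 ± 13.95) lay within 1 SD of each other. At the other end, Sox9, Aldh1l1, Fabp7 and Cldn10 lay between 9.31 and 9.99 CPM per kb and did not differ beyond their spread, and Etnppl was lowest at 0.576 ± 0.106. The 5 highest and the 3 lowest genes were the same in this order in WT vehicle mice with a pellet, where Fabp7 stood at 21.5 ± 4.12 CPM per kb (n = 4). The median coefficient of variation within groups ran from 5.20% for Htra1 to 18.1% for Fabp7 and 20.4% for Etnppl. All 31 were detected in every library.

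**Figure D1:**
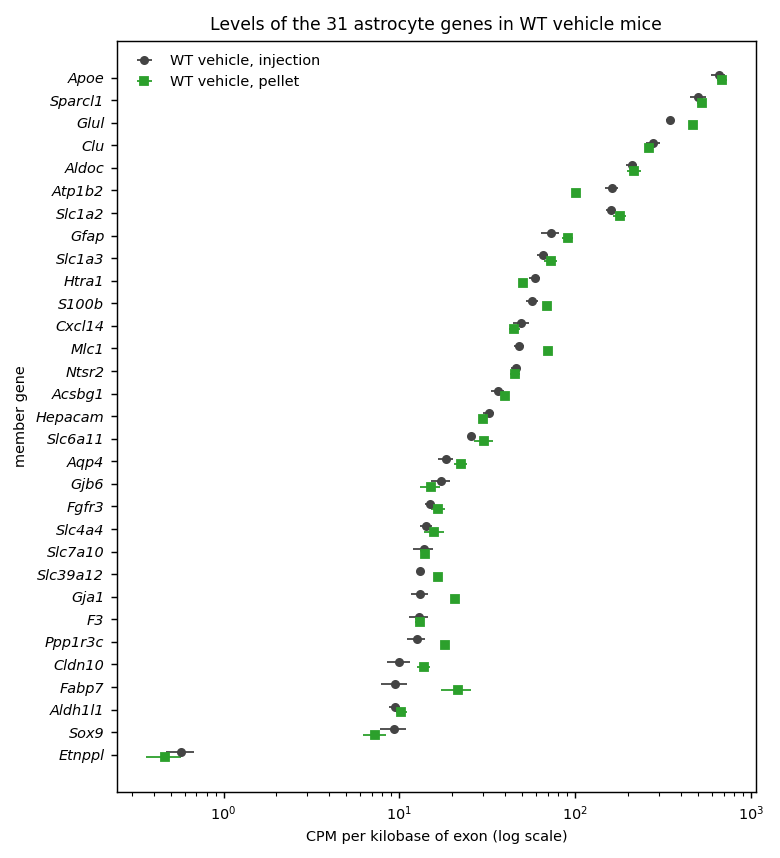
Levels of the 31 genes in WT vehicle mice, as mean CPM per kilobase of exon on a log axis, with bars for the SD. Circles are the 6 mice of the injection experiment and squares the 4 mice of the pellet experiment, and Apoe is highest and Etnppl lowest in both.

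With the injection, 5 of the 31 genes were higher and 0 lower in WT mice, where 1.48% of all 14611 genes passed the threshold, 1.06% higher and 0.417% lower (edgeR's quasi-likelihood test, with p-values adjusted over all genes by the Benjamini-Hochberg method and a threshold of 0.05). In AS mice, 7 were higher and 4 lower, where 17.9% of all genes passed, 8.25% higher and 9.62% lower. With the pellet, 6 were higher and 7 lower in WT mice, where 2.92% of 14949 genes passed (0.803% higher, 2.11% lower), and 7 were higher and 7 lower in AS mice, where 3.77% passed (2.03% higher, 1.75% lower). Their median log2 fold change was 0.04, 0.13, -0.08 and -0.03 in these 4 comparisons, beside medians within 0.01 of 0 over all genes. Group means of their summed level ran from 10600 to 12070 CPM. Most roles held genes that moved in opposite directions.

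**Figure D2:**
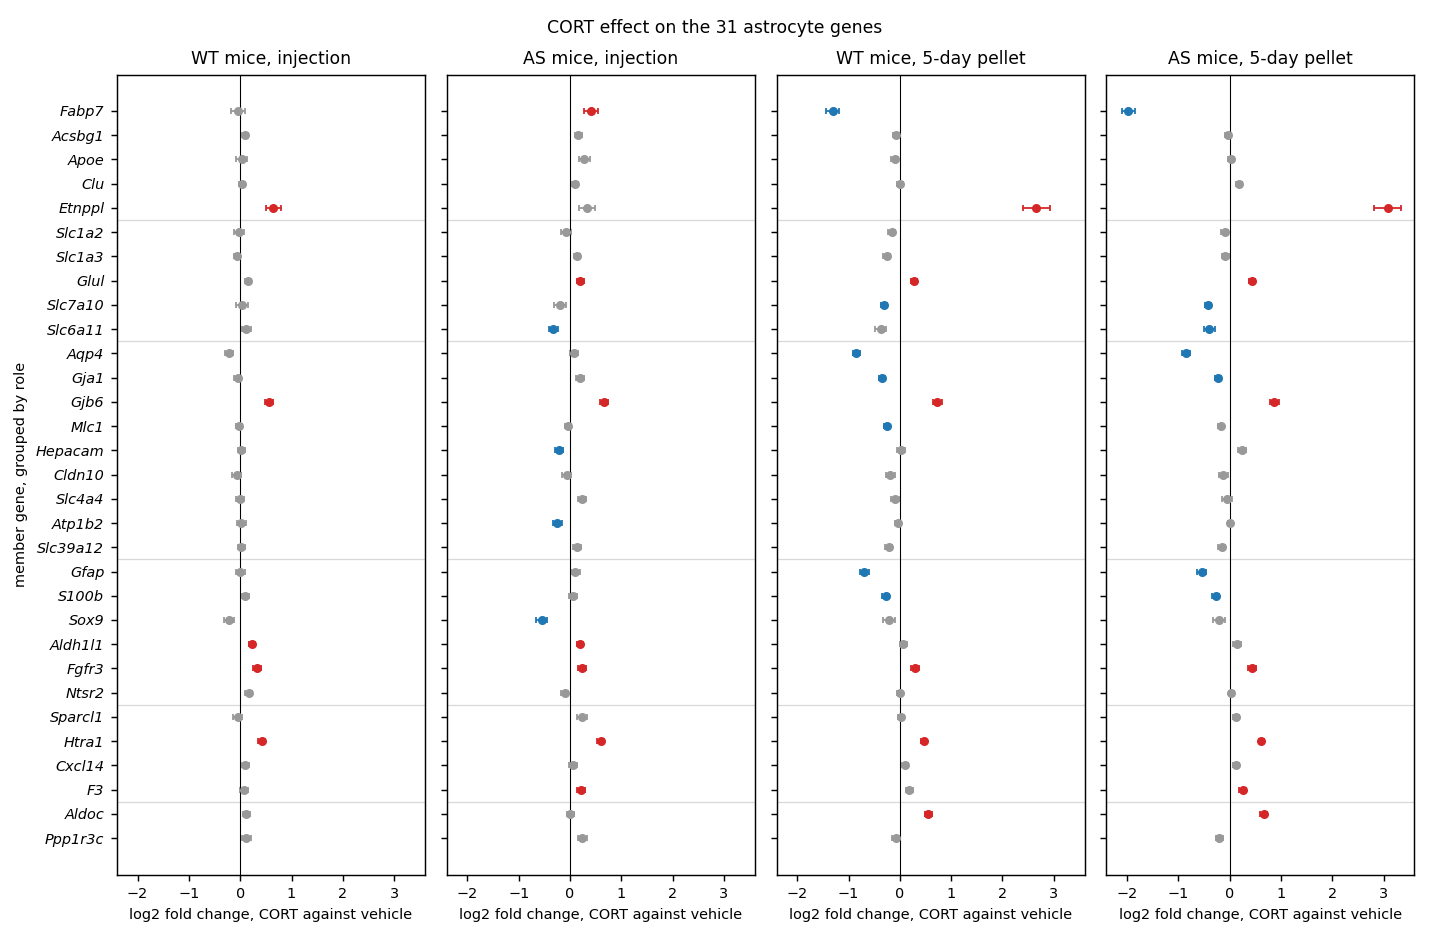
The log2 fold change of CORT against vehicle, with its SE, for each of the 31 genes in the 4 comparisons. Red points are higher and blue points lower with an adjusted p under 0.05, and grey points did not pass. Etnppl and Fabp7 lie farthest from 0 with the pellet, at 2.66 and -1.31 in WT mice and 3.08 and -1.97 in AS mice.

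Among the 5 genes of lipid handling, Etnppl and Fabp7 moved and Acsbg1, an acyl-CoA synthetase, Apoe and Clu did not pass the test in any CORT comparison. Etnppl encodes ethanolamine-phosphate phospho-lyase, an enzyme of phospholipid breakdown that astrocytes express. After the injection, Etnppl ran from 3.58 to 5.64 CPM in WT vehicle mice (median 5.01) and from 4.44 to 10.6 CPM in WT CORT mice (median 7.58). The groups overlapped in 1 CORT mouse, and the log2 fold change was 0.65 (SE 0.15, edgeR's quasi-likelihood test, adjusted p = 0.0245). This call was lost in 6 of the 24 fits that left out a mouse, those without H2, H4, H5, H9, H11 or H12, where the adjusted p reached 0.0897. In AS mice, Etnppl ran from 3.73 to 5.78 CPM with vehicle (median 4.28) and from 4.62 to 6.57 CPM with the injected CORT (median 5.39), which did not pass the test (log2 0.33, SE 0.16, adjusted p = 0.151).

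The pellet gave the largest change of the 31 genes. Etnppl was at 2.85, 3.43, 4.56 and 4.57 CPM in the 4 WT vehicle mice and at 20.8, 21.2, 23.9, 26.5 and 29.8 CPM in the 5 WT CORT mice. In AS mice, it was at 2.14, 2.59, 3.02 and 6.19 CPM with vehicle and at 22.5, 24.4, 25.3, 31.9 and 43.6 CPM with CORT. Every CORT mouse stood far above every vehicle mouse of this set. The rise was 6.32-fold in WT mice (log2 2.66, SE 0.26, adjusted p = 6.48e-06) and 8.46-fold in AS mice (log2 3.08, SE 0.26, adjusted p = 8.04e-07), and it held in all 18 fits that left out a mouse. The 2 vehicle libraries that the study left out stood above the other vehicle mice, at 12.8 CPM in H13 and 52.2 CPM in H9. H13 lay below all WT CORT mice, and H9 lay above all CORT mice. With them, Etnppl no longer passed, at log2 2.11 (adjusted p = 0.153, WT mice) and 1.17 (adjusted p = 0.499, AS mice).

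Fabp7 went down with the pellet. It was at 22.5, 23.1, 28.1 and 33.6 CPM in WT vehicle mice and at 10.0, 10.2, 10.4, 11.3 and 12.1 CPM in WT CORT mice, and at 28.8, 29.6, 33.1 and 37.3 CPM in AS vehicle mice and 6.16, 7.40, 8.27, 8.90 and 10.3 CPM in AS CORT mice. Vehicle and CORT mice did not overlap in either genotype. Fabp7 was 2.48-fold lower in WT mice (log2 -1.31, SE 0.13, adjusted p = 7.87e-06) and 3.92-fold lower in AS mice (log2 -1.97, SE 0.13, adjusted p = 2.88e-08), and it passed with all 20 libraries too (adjusted p = 0.00132 and 1.41e-06). The vehicle mice with a pellet stood above those injected with vehicle, which ran from 10.0 to 15.5 CPM in WT mice and from 11.2 to 14.7 CPM in AS mice, but the 2 experiments were separate and were not compared in level. After the injection, Fabp7 did not pass in WT mice (log2 -0.05, SE 0.14, adjusted p = 0.937). AS CORT mice ran from 13.2 to 21.3 CPM (median 15.4), which overlapped AS vehicle mice (median 11.4), with a log2 fold change of 0.40 (SE 0.13, adjusted p = 0.0389). With a term for the division of the libraries, that value was 0.21 (adjusted p = 0.879), and the call was also lost without H13, H14, H15, H16, H20, H23 or H24.

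**Figure D3:**
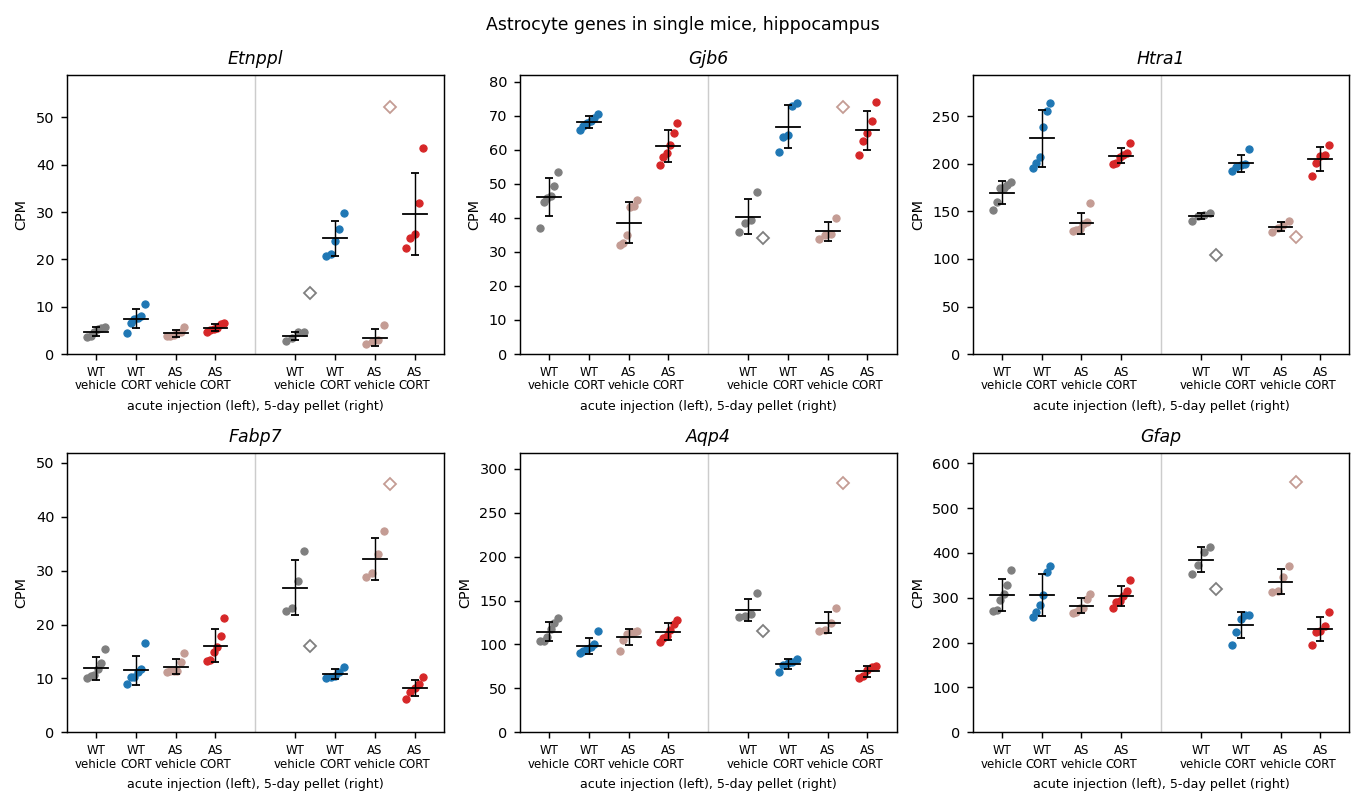
CPM of 6 genes in each mouse, with the injection groups left and the pellet groups right of the line in each panel. Filled circles are mice, lines means, bars SD, and open diamonds the left-out libraries H13 (WT vehicle) and H9 (AS vehicle). CORT pellet mice lie above vehicle mice for Etnppl, Gjb6 and Htra1 and below them for Fabp7, Aqp4 and Gfap, apart from the diamonds.

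Among the 5 genes of glutamate, GABA and amino acid handling, Glul rose with the pellet in both genotypes and Slc7a10 fell. Glul was at 1526 to 1586 CPM in the 4 WT vehicle mice and at 1771 to 2051 CPM in the 5 WT CORT mice, without overlap (log2 0.28, SE 0.06, adjusted p = 0.0160). In AS mice, it went from 1286 to 1491 CPM with vehicle to 1771 to 2147 CPM with CORT (log2 0.43, SE 0.06, adjusted p = 2.90e-04). After the injection, Glul rose by 0.20 in AS mice (adjusted p = 0.0252), which stood at 0.36 with the term for the division (adjusted p = 0.0125) but did not pass without H14, H17, H18, H21 or H23. The value in WT mice was 0.15 (adjusted p = 0.367). Slc7a10, the transporter of D-serine and glycine, fell with the pellet from 28.1, 30.0, 30.2 and 30.6 CPM to 23.4, 23.6, 23.8, 24.03 and 25.0 CPM in WT mice (log2 -0.31, SE 0.06, adjusted p = 0.00720). In AS mice, it fell from 28.1, 31.4, 34.9 and 35.1 CPM to 22.98, 23.6, 23.8, 23.8 and 26.3 CPM (log2 -0.43, SE 0.06, adjusted p = 2.78e-04). No vehicle mouse was as low as any CORT mouse in these groups, but with H9 and H13 neither value passed (adjusted p = 0.0778 and 0.165). Slc6a11, the GABA transporter GAT3, fell with the pellet in AS mice (log2 -0.39, SE 0.10, adjusted p = 0.0351), and its value in WT mice was -0.38 (SE 0.10, adjusted p = 0.0553). The call in AS mice was lost without H2, H7, H10, H14, H16 or H18, and with H9 and H13 included (log2 -0.98, adjusted p = 0.120). The glutamate transporters Slc1a2 (GLT-1) and Slc1a3 (GLAST) did not pass in any CORT comparison, with values of -0.25 to 0.13.

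The 9 genes of channels, junctions, ion transport and endfeet held changes in both directions. Aqp4 was at 132, 133, 135 and 158 CPM in WT vehicle mice with a pellet and at 69.2, 76.1, 78.7, 79.95 and 83.8 CPM in WT CORT mice. In AS mice, it was at 115, 117, 124 and 142 CPM with vehicle and at 61.5, 64.1, 71.4, 74.5 and 75.2 CPM with CORT. No CORT mouse reached a vehicle mouse. Aqp4 was 1.80-fold lower in both genotypes (log2 -0.85, SE 0.08, adjusted p = 2.65e-06 in WT and 2.48e-06 in AS mice) and passed with all 20 libraries (adjusted p = 0.0432 and 0.00205). At 3 h after the injection, Aqp4 did not pass (log2 -0.22, adjusted p = 0.171 in WT and log2 0.08, adjusted p = 0.460 in AS mice).

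The connexins moved apart. Gjb6, which encodes connexin 30, ran from 36.9 to 53.5 CPM in WT mice injected with vehicle (median 46.1) and from 65.8 to 70.6 CPM in WT mice injected with CORT (median 68.0). In AS mice, it ran from 32.1 to 45.1 CPM with vehicle (median 39.1) and from 55.5 to 67.9 CPM with CORT (median 60.2). Vehicle and CORT mice did not overlap in either genotype, with log2 fold changes of 0.56 (SE 0.08, adjusted p = 1.49e-04) and 0.67 (SE 0.08, adjusted p = 8.29e-06). The latter was 0.92 with the term for the division of the libraries (adjusted p = 5.81e-06). With the pellet, Gjb6 went from 35.8, 38.6, 39.3 and 47.7 CPM to 59.4, 63.6, 64.3, 72.8 and 73.7 CPM in WT mice (log2 0.73, SE 0.09, adjusted p = 6.23e-05), and from 33.8, 35.1, 35.2 and 40.1 CPM to 58.5, 62.6, 65.0, 68.3 and 73.9 CPM in AS mice (log2 0.87, SE 0.09, adjusted p = 7.72e-06). Every CORT mouse again stood above every vehicle mouse. With all 20 libraries, H9 and H13 among them, the value in AS mice was 0.60 (adjusted p = 0.0874). Gja1, which encodes connexin 43, fell with the pellet from 208, 213, 215 and 216 CPM to 150.4, 160.3, 169.8, 173 and 179 CPM in WT mice (log2 -0.35, SE 0.06, adjusted p = 0.00168) and by 0.23 in AS mice (SE 0.06, adjusted p = 0.0331), a call lost without H8, H10, H11, H14, H16 or H18.

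Mlc1, a membrane protein of perivascular endfeet, fell with the pellet from 186 to 207 CPM to 158 to 174 CPM in WT mice (log2 -0.25, SE 0.05, adjusted p = 0.00673), and its value in AS mice was -0.18 (SE 0.05, adjusted p = 0.0561). Its partner Hepacam, the sodium pump subunit Atp1b2, the bicarbonate transporter Slc4a4, the claudin Cldn10 and the zinc transporter Slc39a12 did not pass with the pellet in either genotype, with values of -0.21 to 0.23. Hepacam and Atp1b2 are described with the division of the acute libraries below.

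Of the 6 genes of filament, calcium binding, identity and receptors, Gfap and S100b fell with the pellet and Fgfr3 rose. Gfap, the intermediate filament whose rise is a common sign of astrocyte reaction to injury, was at 352, 373, 402 and 413 CPM in WT vehicle mice and at 194, 224, 252, 261 and 263 CPM in WT CORT mice. In AS mice, it was at 312, 315, 347 and 370.2 CPM with vehicle and at 194, 225, 227, 237 and 268 CPM with CORT. The groups did not overlap, and Gfap was 1.61-fold lower in WT mice (log2 -0.69, SE 0.09, adjusted p = 2.08e-04) and 1.46-fold lower in AS mice (log2 -0.55, SE 0.09, adjusted p = 0.00146). After the injection, its values were 0.00 (SE 0.08, adjusted p = 0.995) and 0.10 (SE 0.08, adjusted p = 0.395). S100b, a calcium-binding protein, fell by 0.28 in WT mice (SE 0.06, adjusted p = 0.0175) and by 0.27 in AS mice (SE 0.06, adjusted p = 0.0144), and with all 20 libraries neither passed (adjusted p = 0.219 and 0.220). The calls were lost without H1 or H20 in WT and without H19 in AS mice.

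Fgfr3, a receptor of fibroblast growth factors, was higher with CORT in all 4 comparisons. The log2 fold changes were 0.32 (SE 0.08, adjusted p = 0.0280) in WT and 0.24 (SE 0.08, adjusted p = 0.0364) in AS mice after the injection and 0.29 (SE 0.08, adjusted p = 0.0416) and 0.44 (SE 0.08, adjusted p = 0.00174) with the pellet. Leaving out a mouse removed the call after the injection in WT mice (H2, H3, H6, H7, H9, H10 or H12) and in AS mice (H13, H14, H16, H17, H18, H21, H22, H23 or H24), and that with the pellet in WT mice (H1, H3, H5, H6, H8, H11, H15, H17, H18 or H20). With the term for the division, the value after the injection in AS mice was 0.37 and did not pass (adjusted p = 0.119). With all 20 libraries, neither pellet value passed (adjusted p = 0.122 and 0.145), and 998 exon bases of Fgfr3 overlap a gene on the other strand. Slc1a2, Glul, Slc7a10 and Aldh1l1 share 116 to 499 exon bases with genes on the other strand, Glul and Aldh1l1 also share 93 and 105 with genes on the same strand, and the strand setting of the counting is not given in the sources used here. Aldh1l1, the folate enzyme widely used to mark astrocytes, rose by 0.23 in WT (SE 0.06, adjusted p = 0.0335) and 0.20 in AS mice (SE 0.06, adjusted p = 0.0171) after the injection, calls lost without 8 of the 12 mice H1 to H12 in WT (all but H1, H5, H7 and H9) and without H16 in AS mice. With the term for the division, the value in AS mice was 0.15 (adjusted p = 0.683), and its values with the pellet were 0.07 and 0.15 (adjusted p = 0.746 and 0.349). Ntsr2, a neurotensin receptor, did not pass in any CORT comparison, and Sox9, a transcription factor of glial identity, passed only after the injection in AS mice.

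Of the 4 secreted and surface proteins, Htra1 rose in all 4 comparisons. Htra1, a secreted serine protease, ran from 151 to 181 CPM in WT mice injected with vehicle (median 175) and from 196 to 264 CPM in those injected with CORT (median 223). AS mice ran from 129 to 159 CPM (median 134) and from 200 to 222 CPM (median 208). The groups did not overlap, with log2 fold changes of 0.42 (SE 0.07, adjusted p = 7.78e-04) and 0.60 (SE 0.07, adjusted p = 2.56e-06), and the latter was 0.65 with the term for the division (adjusted p = 5.90e-04). With the pellet, Htra1 was at 140.3, 145, 147 and 149 CPM in WT vehicle mice and at 193, 197, 199, 199.5 and 216 CPM in WT CORT mice, and at 128, 132, 136 and 139.8 CPM and 187, 201, 208, 209.5 and 220 CPM in AS mice. Here too every CORT mouse was above every vehicle mouse (log2 0.47, SE 0.05, adjusted p = 8.78e-06 in WT and log2 0.61, SE 0.05, adjusted p = 2.61e-07 in AS mice), and both passed with all 20 libraries. F3, which encodes tissue factor, the starter of blood clotting, rose in AS mice after the injection (log2 0.22, adjusted p = 0.0441) and with the pellet (log2 0.26, adjusted p = 0.0397), but lost the former without H5, H11, H13, H14, H15, H18, H19, H20, H21, H22 or H23 and the latter without H1, H2, H7, H10, H11, H16, H18 or H19. With the term for the division, the value after the injection was 0.16 (adjusted p = 0.810), and with all 20 libraries the value with the pellet was 0.23 (adjusted p = 0.158). Sparcl1 and the chemokine Cxcl14 did not pass in any CORT comparison.

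The 2 genes of glycolysis and glycogen differed. Aldoc was at 645, 663, 725 and 788 CPM in WT vehicle mice with a pellet and at 970.0, 973, 1013, 1086 and 1132 CPM in WT CORT mice, and at 657, 668, 678 and 696 CPM and 989, 999, 1094, 1096 and 1154 CPM in AS mice. The groups did not overlap (log2 0.55, SE 0.06, adjusted p = 4.88e-05 and log2 0.66, SE 0.06, adjusted p = 5.53e-06). After the injection, the log2 fold changes of Aldoc were 0.12 (WT, adjusted p = 0.521) and 0.01 (AS, adjusted p = 0.955). Ppp1r3c, a scaffold of glycogen synthesis, did not pass in any of the 4 comparisons.

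Slc6a11, Sox9, Hepacam and Atp1b2 were lower in AS mice after the injected CORT, and the values of Slc6a11, Hepacam and Atp1b2 followed the division of the libraries. Slc6a11 ran from 97.7 to 114 CPM in the 6 AS CORT mice, all of them in H17 to H24. The AS vehicle mice H17 and H18 were at 108 and 106 CPM, inside that range, and the other 4 AS vehicle mice at 134, 138, 141 and 168 CPM, above it. Hepacam stood at 88.1 and 94.8 CPM in H17 and H18 against 107 to 127 CPM in the other 4, and Atp1b2 at 566 and 508 CPM against 686 to 766 CPM. Sox9 differed in this respect, since H17 and H18 were at 32.0 and 35.4 CPM, inside the range of the other 4 (30.7 to 43.3 CPM) and above the AS CORT mice (20.4 to 29.9 CPM).

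**Figure D4:**
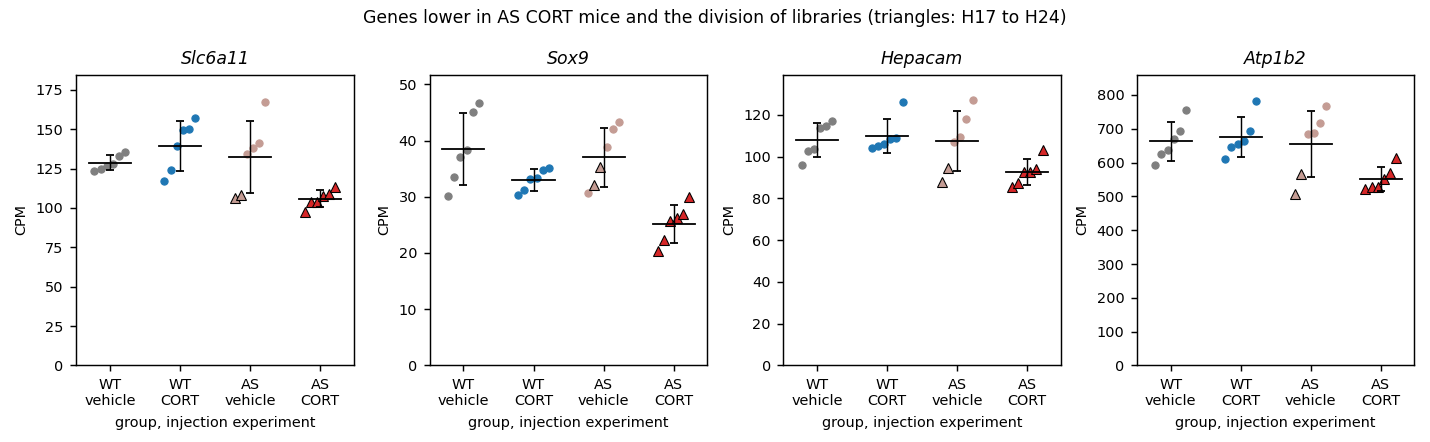
CPM in each mouse of the injection experiment for Slc6a11, Sox9, Hepacam and Atp1b2, with lines for means and bars for SD. Triangles mark the libraries H17 to H24, to which all 6 AS CORT mice and the 2 lowest AS vehicle mice of Slc6a11, Hepacam and Atp1b2 belong.

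Without a term for the division, the log2 fold changes of CORT in AS mice were -0.32 for Slc6a11 (SE 0.09, adjusted p = 0.0114), -0.21 for Hepacam (SE 0.07, adjusted p = 0.0446), -0.25 for Atp1b2 (SE 0.08, adjusted p = 0.0373) and -0.55 for Sox9 (SE 0.10, adjusted p = 8.39e-04). With the term, which rests on the AS vehicle mice H17 and H18, they were -0.02 (adjusted p = 0.987), 0.02 (adjusted p = 0.988), 0.04 (adjusted p = 0.972) and -0.42 (adjusted p = 0.251). Without the term, Hepacam already lost its call without H2, H13, H14, H15, H16, H19, H20, H22, H23 or H24, and Atp1b2 without H13, H14, H15, H16, H19, H20, H22 or H24. Of the 11 genes called in AS mice, 3 then remained, Glul, Gjb6 and Htra1, where 1.03% of all genes passed. The same 3 remained when H17 and H18 alone stood for AS vehicle, where 0.890% of all genes passed. Beyond H17 and H18, the division and CORT cannot be told apart in AS mice. Markers of other cells moved in the same comparison, where 9.62% of all genes were lower. Summed oligodendrocyte markers were at 1775 to 3512 CPM in AS CORT mice against 2637 to 5108 CPM in AS vehicle mice, with 5 of 10 lower and a median log2 fold change of -0.69. Summed endothelial markers were at 172.5 to 196 CPM against 201 to 239.5 CPM, without overlap, with 3 of 10 lower and 1 higher, and those of oligodendrocyte precursors at 261 to 347 CPM against 271 to 375 CPM, with 2 of 6 lower. With the term for the division, 1 endothelial gene and 0 of the other 2 lists were lower, while the oligodendrocyte median was -0.51. Their part in the astrocyte values was not tested.

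The difference between the pellet and the injection was tested in 1 fit of both experiments, in which each CORT effect was taken against its own vehicle group. In WT mice, 2 of the 31 genes had a higher and 3 a lower CORT effect with the pellet, where 0.486% of 15024 genes passed, 0.0666% higher and 0.419% lower. Etnppl (difference of log2 fold changes 2.03, SE 0.29, adjusted p = 6.31e-05) and Aldoc (0.45, SE 0.09, adjusted p = 0.00818) were higher, and Fabp7 (-1.25, SE 0.20, adjusted p = 2.98e-04), Aqp4 (-0.61, SE 0.11, adjusted p = 9.97e-04) and Gfap (-0.68, SE 0.13, adjusted p = 0.00243) were lower. In AS mice, 3 were higher and 5 lower, where 2.39% of all genes passed, 1.73% higher and 0.659% lower. These were the same 5 genes, with differences of 2.77, 0.67, -2.36, -0.91 and -0.64, together with Hepacam (0.46, SE 0.11, adjusted p = 0.0212), Gja1 (-0.40, SE 0.10, adjusted p = 0.0232) and Ppp1r3c (-0.42, SE 0.12, adjusted p = 0.0497). The call of Ppp1r3c held in only 10 of 42 fits that left out a mouse, that of Gja1 was lost without continuous H11 or H14 and that of Hepacam without continuous H14. The AS differences include the divided acute libraries, and no term for the division was fitted here. For Hepacam, part of the difference is its acute fall in AS mice, whose sign turned with that term, as given above. For Gjb6 (0.18, SE 0.13, in WT and 0.22, SE 0.13, in AS mice) and Htra1 (0.06, SE 0.09, and 0.03, SE 0.09), no difference between the exposures was detected. With all 20 continuous libraries, Etnppl, Aqp4 and Gfap no longer passed in WT mice, nor did Etnppl, Hepacam and Ppp1r3c in AS mice. Dose, route, duration and experiment differ together between the pellet and the injection and cannot be told apart.

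**Figure D5:**
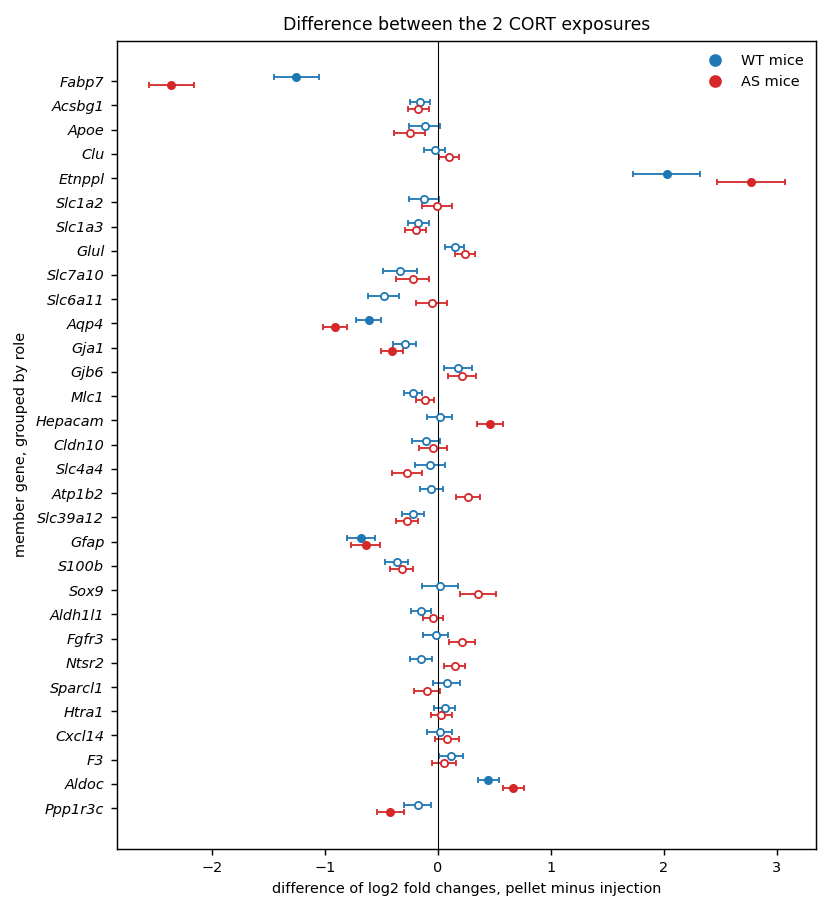
The log2 fold change of CORT with the pellet minus that with the injection, with its SE, for each of the 31 genes in WT (blue) and AS mice (red). Filled points have an adjusted p under 0.05, with Etnppl at 2.03 and 2.77 on the right and Fabp7 at -1.25 and -2.36 on the left.

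The effect of genotype was compared within each treatment. In vehicle mice, AS against WT gave 0 of the 31 genes in the acute experiment with edgeR. There, 0.157% of all genes passed (0.0753% higher, 0.0821% lower), and 1394 genes had an unadjusted p under 0.05. With the term for the division, 0 of the 31 and 0.151% of all genes passed. DESeq2, without the term, called 1 of the 31, Htra1, where 0.678% of all genes passed. Htra1 was at 129 to 159 CPM in AS vehicle and 151 to 181 CPM in WT vehicle mice, overlapping groups with a log2 difference of -0.30 (SE 0.07, edgeR's adjusted p = 0.0787). In the continuous experiment, 0 of the 31 passed with edgeR between vehicle mice, where 0.0134% of all genes passed (0.00669% in each direction) and 1098 had an unadjusted p under 0.05, and 0 between CORT mice, where 0.0401% passed (0.0134% higher, 0.0268% lower) and 1523 had an unadjusted p under 0.05. DESeq2 also called 0 of the 31 in both, where 0.12% of all genes passed between vehicle mice and 0.294% between CORT mice. The interaction (the effect of CORT in AS mice minus its effect in WT mice) gave 0 genes with the pellet (0% of all genes, 561 at an unadjusted p under 0.05, and 0 of the 31 with DESeq2). Fabp7 had the value farthest from 0 in it, at -0.66 (SE 0.19, adjusted p = 1). Its AS CORT mice (6.16 to 10.3 CPM) overlapped its WT CORT mice (10.0 to 12.1 CPM), and the difference of AS from WT mice was 0.26 with vehicle (SE 0.13) and -0.40 with CORT (SE 0.13).

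Between CORT mice of the acute experiment, 2 of the 31 genes were higher and 6 lower in AS than in WT mice, where 24.9% of all genes passed, 11.7% higher and 13.2% lower. Fabp7 (log2 0.49, SE 0.13, adjusted p = 0.0105) and Aqp4 (0.22, SE 0.07, adjusted p = 0.0259) were higher, and Etnppl (-0.42, SE 0.15, adjusted p = 0.0439), Slc6a11 (-0.40, SE 0.09, adjusted p = 0.00191), Hepacam (-0.25, SE 0.07, adjusted p = 0.0169), Atp1b2 (-0.29, SE 0.08, adjusted p = 0.0119), Sox9 (-0.39, SE 0.10, adjusted p = 0.00850) and Ntsr2 (-0.23, SE 0.07, adjusted p = 0.0219) were lower. The share called among the 31 was near that of all genes, and Etnppl lost its call without H5, H7, H9, H11, H12, H19, H22, H23 or H24 and Aqp4 without H10, H11, H23 or H24. All AS CORT mice and no WT mice lie in H17 to H24, and with the term for the division 0 of the 31 and 0% of all genes passed. The sign then turned for 4 of the 6 lower genes, Slc6a11 (0.04), Hepacam (0.09), Atp1b2 (0.12) and Ntsr2 (0.03). The acute interaction gave 1 gene, Slc6a11, where 4.49% of all genes passed (1.43% higher, 3.06% lower). Its CORT effect was 0.12 in WT (SE 0.08) and -0.32 in AS mice (SE 0.09), a difference of -0.44 (SE 0.12, adjusted p = 0.0402), which held only without H1, H6, H7, H8, H9, H17, H18 or H21 among the 24 fits that left out a mouse, and was -0.14 with the term for the division (adjusted p = 0.905). Without H8, 9.27% of all genes passed for the interaction, and Fabp7 passed beside Slc6a11 (0.58, adjusted p = 0.0331, against 0.45, SE 0.19, adjusted p = 0.158 with H8).

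Other astrocyte genes, from lists set apart from the 31, also moved in both directions. Of 60 further homeostatic astrocyte genes, 8 rose and 1 fell in WT mice and 11 rose and 10 fell in AS mice after the injection, and 6 rose and 14 fell in WT and 11 rose and 14 fell in AS mice with the pellet. Their median log2 fold changes were 0.03, -0.02, -0.11 and -0.08. For these lists and those that follow, the shares of all genes that passed are again 1.48%, 17.9%, 2.92% and 3.77%, so that in AS mice after the injection the 2 called of 24 reactive genes lie below the share of all genes and the 5 called of 20 genes of the glutamate-glutamine cycle near it. With the term for the division, 6 of the 60 homeostatic genes rose and 0 fell in AS mice after the injection, 0 of 24 reactive genes passed, and 1 rose and 1 fell in the glutamate-glutamine list, where 1.03% of all genes passed. Fam107a, an actin-binding protein known as a glucocorticoid target, rose with the pellet by 0.96 in WT and 1.11 in AS mice (adjusted p = 7.71e-08 and 6.03e-09), and the syndecan Sdc4 rose after the injection by 0.55 and 0.72, the latter 0.84 with the term for the division (adjusted p = 9.05e-07). Tst, a mitochondrial sulfurtransferase, fell with the pellet by 0.69 and 0.80, and Slc38a3, a glutamine transporter, fell by 0.66 and 0.67. Of the 24 tested reactive astrocyte genes, 1 rose in WT and 1 rose and 1 fell in AS mice after the injection, and of 25 with the pellet 1 rose in each genotype, Serpina3n (0.34 and 0.35), while 4 fell in WT and 1 in AS mice. Of 20 genes of the glutamate-glutamine cycle and energy supply, 1 rose and 1 fell in WT and 1 rose and 4 fell in AS mice after the injection, and the one that rose was the glucose transporter Slc2a1 (0.94 and 0.92, the latter 1.12 with the term for the division, adjusted p = 3.71e-08). With the pellet, 1 rose and 2 fell in WT and 3 rose and 2 fell in AS mice.

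Fabp7 also marks radial glia-like stem cells, and 19 other genes of these cells were tested. With the pellet, 0 rose and 5 fell in WT mice and 1 rose and 4 fell in AS mice, with a median of -0.24 in both, and after the injection 0 rose and 2 fell in WT and 2 rose and 5 fell in AS mice, with medians of -0.12 in both. Fitted with the term for the division, 1 rose and 2 fell in AS mice after the injection, with a median of -0.10. Sox2, a transcription factor of neural stem cells, was then at -0.64 (adjusted p = 0.0279), against -0.69 without the term, the matrix protein gene Tnc at -0.68 (adjusted p = 0.0414), against -0.48, and the transcription factor gene Pax6 at -0.27 (adjusted p = 0.455), against -0.33. Hopx, a homeodomain protein of quiescent stem cells that astrocytes also express, fell with the pellet by 0.55 and 0.65, the intermediate filament gene Nes by 0.70 and 0.84, and Tnc by 1.33 and 1.18. Prom1 rose in AS mice with the pellet by 0.57 (edgeR's adjusted p = 0.0133). In AS mice after the injection, Prom1 rose by 0.38, which was 0.46 with the term (edgeR's adjusted p = 0.0442). Thrsp rose there by 0.56, which was 0.44 with the term (edgeR's adjusted p = 0.480). After the injection in WT mice, 2 of 10 microglial genes fell, 1 of 10 endothelial genes rose and 1 fell, and no gene of the other lists of markers of other cells passed. Summed choroid plexus markers ran from 28.8 to 1052 CPM in these WT vehicle mice and from 26.8 to 58.6 CPM in WT CORT mice, and blood markers from 51.2 to 147 and from 92.4 to 184 CPM. Of the markers of other cells, 0 of 10 neuronal genes passed with the pellet, 1 of 10 oligodendrocyte and 2 of 6 oligodendrocyte precursor genes fell in each genotype, and 4 and 3 of 10 microglial, 3 and 4 of 10 endothelial and 3 and 3 of 6 mural genes fell in WT and AS mice. Summed choroid plexus markers ran from 77.7 to 2885 CPM in WT vehicle mice and from 37.8 to 129 CPM in WT CORT mice with a pellet, and 2 of 6 fell in WT and 0 in AS mice. Summed blood markers ran from 40.9 to 58.8 CPM in WT vehicle and from 75.3 to 186 CPM in WT CORT mice with a pellet, without overlap, and from 53.1 to 118 CPM and 37.6 to 174 CPM in AS mice, and 0 of 5 passed in either genotype. None of the 6 immature neuron and 5 meningeal fibroblast markers passed with the pellet, with medians of -0.34 and -0.32 in WT and -0.24 and -0.39 in AS mice. Their part in the values of the astrocyte genes was not tested.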

How the data were processed

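Left hippocampal RNA of 44 mice was sequenced as stranded mRNA libraries (paired-end, DNBseq). The authors made the deposited read counts per gene with the BioWDL pipeline, for which the labels name STAR, HTSeq, FastQC, MultiQC and the mm10 genome. The annotation release and strand setting are not given in the sources used here. From the counts, each experiment was fitted with edgeR 4.0.16 in R 4.3.3 (TMM scaling, quasi-likelihood test, 1 coefficient per group), with Benjamini-Hochberg adjustment over the genes tested, which had normalized counts above 20 in 3 or more mice of some group. SE values are the log2 fold change divided by the square root of F. The study itself used DESeq2 (here 1.42.0, as an alternative). Libraries H9 and H13 of the continuous experiment were left out, as in the study. Symbols and exon lengths came from GENCODE M21 on GRCm38. The code was tested on simulated counts. All 31 genes are named, and of each other astrocyte list up to 5 genes with the smallest adjusted p in a comparison. The alternatives tried are given in the closing section. The 31 genes and the other lists were chosen with earlier results of these data known. P-values measure the spread between these samples, which may in part be technical.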

Additional observations from a re-analysis of the deposited data

Results flagged for a closer look

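In 14 of 248 groups of 4 to 6 mice, 1 mouse lay farther from the others than Dixon's test allows at the 95% level, where chance flags about 1 in 20 groups, or 12 here. In the acute experiment, the AS vehicle mouse H15 was highest for Fgfr3 (138 CPM), Ntsr2 (192 CPM), Htra1 (159 CPM), Cxcl14 (106 CPM) and Aldoc (828.5 CPM). The WT CORT mouse H8 was highest for Fabp7 (16.6 CPM, next 11.7 CPM) and Cxcl14 (116 CPM), and the WT CORT mouse H11 for Hepacam (126 CPM, next 109 CPM). In the continuous experiment, the WT vehicle mouse H4 was highest for Aqp4 (158 CPM), Fgfr3 (135 CPM) and Ppp1r3c (52.7 CPM), and H1 for S100b (109 CPM). The AS CORT mouse H7 was highest for Apoe (1563 CPM) and H18 for Slc7a10 (26.3 CPM). The acute CORT effect on Slc6a11 differed between the genotypes in the test of the interaction, at -0.44 on the log2 scale (SE 0.12, edgeR's adjusted p = 0.0402). It is 1 of the 31 genes, where 4.49% of all genes passed, its call was lost in 16 of 24 fits that left out a mouse, and it was -0.14 with the term for the library division (adjusted p = 0.905).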

How the results depend on the processing

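Of the 65 called values of the 31 genes, all 65 kept their direction and their call with DESeq2 and with DESeq2's size factors in edgeR, and 56 passed without the filter on low counts. Fewer calls held under other settings, 42 of 52 with trends of GC content and length removed, 42 of 51 with only the 2 groups compared, 23 of 40 with all 20 continuous libraries, 37 of 65 with an adjusted p under 0.01 and 8 of 25 with the term for H17 to H24, where 6 turned sign. For acute CORT in AS mice, 7 of the 11 calls remained with those trends removed. With an adjusted p under 0.01, 2 genes passed for acute CORT in WT (0.76% of all genes), 3 in AS mice (6.36%), 2 for AS against WT with acute CORT (11.7%), 0 for the acute interaction (0%) and 5 for the pellet against the injection in AS mice (0.386%). DESeq2 gave 1 gene for AS against WT with acute vehicle (0.678%), and so did removing trends of GC content and length (0.212%), which also gave 5 for AS against WT with acute CORT (18.5%) and 0 for the interaction (0%). Without the filter, 6 passed for acute CORT in AS mice (6.06%), and with only the 2 groups compared, 3 passed in WT mice (0.938%), where Etnppl had an adjusted p of 0.135. With the term for H17 to H24, 3 passed for acute CORT in AS mice, 0 for AS against WT with acute CORT and 0 for the interaction. The sign then turned for Hepacam (0.018) and Atp1b2 (0.040) in the CORT effect of AS mice and for Slc6a11 (0.038), Hepacam (0.089), Atp1b2 (0.12) and Ntsr2 (0.025) in AS against WT with CORT. When H17 and H18 alone stood for AS vehicle, 3 passed for CORT in AS mice, 3 for AS against WT with vehicle, where 1.40% of all genes passed (Glul, Slc7a10 and Gjb6, all lower) and 0 for the interaction, with Hepacam at 0.014 and Atp1b2 at 0.036. With H13 to H16 instead, 6 passed for the interaction, near the share of all genes (19.2%). With all 20 continuous libraries, 7 passed for CORT in AS mice (1.47%), 2 for the pellet against the injection in WT (0.499%) and 5 in AS mice (1.20%). The cause of these changes was not tested.

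Leaving out each mouse in turn gave 2 to 5 genes for acute CORT in WT mice (2 without H2 or H12), 5 to 14 in AS mice (5 without H14, 14 without H8), 0 to 1 for AS against WT with vehicle, 6 to 10 with CORT and 0 to 4 for the interaction (4 without H18). The calls over all genes moved as well, with 165 to 237, 1533 to 3492, 7 to 51, 2748 to 4187 and 0 to 1563 genes. In the continuous experiment, it gave 11 to 14 for WT, 11 to 15 for AS mice and 0 for each genotype comparison. Over all genes, 252 to 464 passed for WT and 362 to 627 for AS mice. Between genotypes, 1 to 6 of all genes passed with vehicle, 1 to 16 with CORT and 0 for the interaction. The pellet against the injection gave 5 in every WT fit and 5 to 10 in AS mice (5 without continuous H14, 10 without acute H18). Over all genes, it gave 51 to 99 in WT and 162 to 863 in AS mice. No paired analysis was possible, because no mouse number is shared between groups of an experiment and litters are not given in the sources used here. Etnppl had the lowest counts of the 31 genes and so the largest relative counting error.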
